A study of Mus musculus with 25 samples.

Results

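The metabolic intronic miRNA precursors mmu-mir-33, mmu-mir-378a, mmu-mir-103-1, mmu-mir-103-2 and mmu-mir-107 of the mouse, written without the prefix from here on, were followed across adult life in the brain. They were taken as the rows of the deposited precursor count table that carry those names, which gave 5 of 1193 rows. The libraries were small RNA libraries of brain hemispheres from male mice of the inbred strain C57BL/6, with 5 libraries at each of 2, 9, 15, 24 and 30 months and 25 in all. The labels name no treatment, allele or transgene, so age was the only labelled factor that differed between groups. Rows are named by precursor and not by arm, so each is read here as the count of a whole hairpin, and the arms cannot be separated.

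Intronic miRNAs are cut out of the transcripts of a host gene and can share its transcription. The host of mir-33 is Srebf2, which encodes the transcription factor SREBP-2 that turns on cholesterol synthesis, and miR-33 represses the cholesterol exporter Abca1, so host and miRNA both act to raise cellular cholesterol. The host of mir-378a is Ppargc1b, which encodes PGC-1β, a coactivator of mitochondrial genes. The hosts of mir-103-1, mir-103-2 and mir-107 are Pank3, Pank2 and Pank1, pantothenate kinases that catalyse the first committed step of coenzyme A synthesis. In mice miR-103 and miR-107 are known to lower insulin sensitivity. In the brain cholesterol is made locally, much of it by oligodendrocytes for myelin.

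In the GENCODE M21 annotation of GRCm38, each of the 5 hairpins lies inside an intron of its host and on the host's strand. mir-33 lies at chr15:82198122-82198190 on the plus strand, between exons 16 and 17 of Srebf2. mir-103-1 lies at chr11:35782396-35782481 on the plus strand, between exons 5 and 6 of Pank3, and mir-103-2 at chr2:131288052-131288137 on the plus strand, between exons 7 and 8 of Pank2. mir-107 lies at chr19:34820687-34820773 on the minus strand, between exons 5 and 6 of Pank1. Exon numbers follow 1 annotated transcript of each host that spans the hairpin. The distance from the hairpin to the nearest exon of that transcript was 335 bases for mir-33, 688 for mir-103-1, 454 for mir-103-2 and 326 for mir-107.

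The counted unit is shown by the hairpins of mir-33 and of the mir-103 and mir-107 loci, written 5′ to 3′ from RefSeq on GRCm38.p6, with the annotated mature arms in capitals.
mir-33: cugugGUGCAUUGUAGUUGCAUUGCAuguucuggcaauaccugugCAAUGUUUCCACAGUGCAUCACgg
mir-103-1: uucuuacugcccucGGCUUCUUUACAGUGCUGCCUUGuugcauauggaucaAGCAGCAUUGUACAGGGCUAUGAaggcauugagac
mir-103-2: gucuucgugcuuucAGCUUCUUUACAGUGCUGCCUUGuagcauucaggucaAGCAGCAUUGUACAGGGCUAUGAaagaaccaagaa
mir-107: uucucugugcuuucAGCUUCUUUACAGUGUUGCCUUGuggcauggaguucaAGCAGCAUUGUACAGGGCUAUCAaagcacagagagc
The 3p arm is the same in both mir-103 loci, so a read of it names no locus.

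The seed, bases 2 to 8 of a mature miRNA, is the stretch that pairs with target mRNAs, and it is in capitals in the mature sequences that separate the members.
miR-33-5p: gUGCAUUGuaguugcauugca
miR-33-3p: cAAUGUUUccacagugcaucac
miR-103-3p: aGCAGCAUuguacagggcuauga
miR-107-3p: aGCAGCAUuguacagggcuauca
Of 1679 mature mouse miRNAs in the RefSeq table, miR-103-3p and miR-107-3p were the 2 with the seed GCAGCAU, and neither miR-33 seed occurred in another. Counted from 1 at the 5′ end, miR-107-3p differs from miR-103-3p by G22C alone. The 21 bases before it are identical, so a read that ends before base 22 cannot be assigned to either.

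Total counts per library ranged from 3.78 M to 9.52 M reads with a median of 5.61 M, and the 5 members together held 0.616% to 0.736% of them. Levels are given as CPM, the count relative to library size, which was scaled by edgeR's trimmed mean of M values (TMM), and all 5 members were among the 425 precursors tested. The tissue label was checked against 8 neuronal precursors, which summed to between 58847 and 79792 CPM with none at 0, whereas the liver marker mir-122 lay between 0.160 and 5.99 CPM. Erythroid markers, at 2068 to 7814 CPM in sum, and epithelial markers, at 71.5 to 2013 CPM, varied widely between libraries. Sequencing lane, which the column names give, is a possible batch. The main tests and the permutation tests of ratios did not include lane, which was a covariate in an alternative fit only. The 5 libraries of lane 3 hold 1 of each age. For mir-378d, a relative of mir-378a by name, they lay apart from the other 20, at 0.148 to 1.296 CPM against 5.08 to 39.4 CPM. Of those 20, the libraries of lane 5, at 5.08 to 8.17 CPM, also lay below the rest. Lane 5 holds 2, 9, 15 and 30 months, and no refit left out a lane other than lane 3. For each of the 5 members the range of the lane 3 libraries overlapped that of the other 20. Whether lane 3 differs over the table as a whole was not tested. Values without it are given for the mir-33 and mir-378a calls between pairs of ages and for ratios between members.

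**Figure D1:**
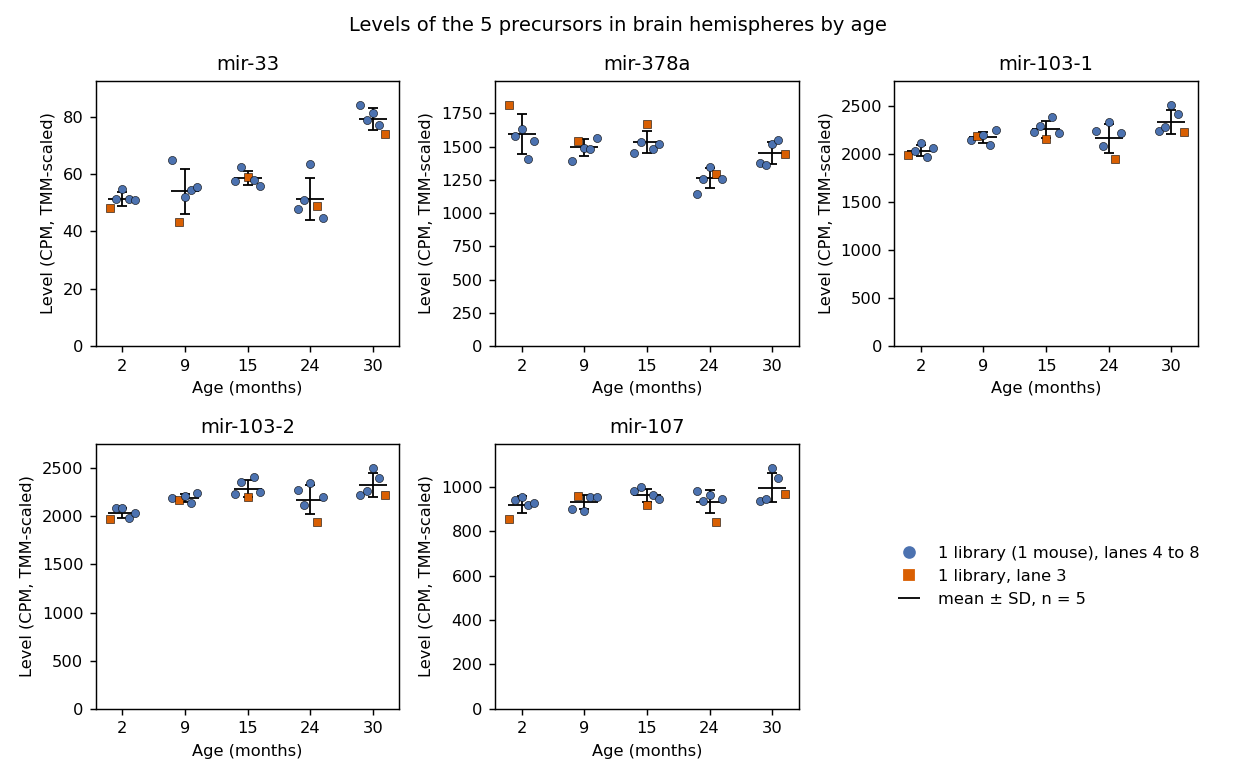
Level of each precursor (TMM-scaled CPM, linear axes from 0) against age in months. Each point is 1 library of 1 mouse, squares are the libraries of lane 3, and bars give the mean ± SD of 5 libraries; the 30-month libraries of mir-33 sit between 74.1 and 84.1 CPM, above each library of the other ages.

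The level of mir-33 lay between 43.2 and 65.0 CPM at the 4 younger ages and was higher at 30 months. It lay at 48.3, 51.3, 55.0, 51.45 and 51.0 CPM in the 2-month libraries and at 65.0, 43.2, 52.2, 54.5 and 55.5 CPM in the 9-month libraries. It lay at 57.7, 62.4, 58.9, 57.8 and 55.8 CPM at 15 months and at 47.9, 51.1, 63.6, 48.9 and 44.7 CPM at 24 months. At 30 months it lay at 84.1, 78.9, 81.3, 77.3 and 74.1 CPM. Each 15-month library lay above each 2-month library, while the other pairs among the 4 younger ages overlapped. The lowest 30-month library lay above the highest library of any other age. How common such a separation of ages is among all tested precursors was not tested, for mir-33 or for the precursors described below.

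Between 24 and 30 months mir-33 averaged 79.1 ± 3.81 CPM at 30 months and 51.25 ± 7.29 CPM at 24 months (SD, n = 5 each). This was a log2 fold change of 0.63 ± 0.09 (SE), or 1.54-fold (edgeR, adjusted p = 3.84e-05). Of the 425 precursors, 8.71% were called in this interval (6.12% higher and 2.59% lower at 30 months), and mir-33 had the 4th smallest p. Over the whole range of ages the log2 fold change was 0.62 ± 0.09 (SE, n = 5 each), from 79.1 ± 3.81 CPM at 30 months against 51.4 ± 2.38 CPM at 2 months (adjusted p = 9.97e-06). Here 36.9% of precursors were called, 81 of them higher and 76 lower at 30 months, or 50 higher and 91 lower under upper-quartile scaling.

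Within lanes the rise was of like size, with 1 smaller value. Between 30 and 2 months the log2 difference was 0.61 in lane 3, 0.61 in lane 5, 0.61 in lane 6 and 0.67 in lane 7, the 4 lanes that held both ages. Between 30 and 24 months it was 0.59 in lane 3, 0.71 in lane 6, 0.66 in lane 7 and 0.28 in lane 8. Without lane 3 the log2 fold changes were 0.59 between 30 and 2 months and 0.61 between 30 and 24 months (adjusted p = 3.62e-05 and 1.56e-04).

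The changes of mir-33 over the earlier intervals did not pass the test. The log2 fold change was 0.07 ± 0.09 for 9 against 2 months, 0.12 ± 0.09 for 15 against 9 months and -0.19 ± 0.09 for 24 against 15 months (SE, n = 5 each; adjusted p from 0.440 to 0.998). The background of calls was 7.76% (1.88% higher and 5.88% lower at 9 months), 0% and 0.235% of precursors in these intervals. Where edgeR called 0 precursors, between 9 and 15 months, 27 had an unadjusted p under 0.05 and DESeq2 called 2.

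A straight line on age rose by 0.20 ± 0.05 on the log2 scale per 12 months for mir-33 (SE, adjusted p = 0.00254), where 35.5% of precursors had a slope that passed. The 5 age means also departed from that line (adjusted p = 0.00242), as those of 7.06% of precursors did.

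Oligodendrocyte miRNAs rose with mir-33 between 24 and 30 months. In the interval that ended at 24 months mir-33 had a log2 fold change of -0.19 ± 0.09. Those of mir-338 (0.16 ± 0.08), mir-219a-2 (0.14 ± 0.07) and mir-219a-1 (0.03 ± 0.12) lay above 0 there (SE, edgeR). None of these changes before 24 months passed. The summed level of mir-338 and the 2 mir-219a loci was 3612 to 4554 CPM at 30 months, against 2869.8 to 3405 CPM at 24 months and 2486.5 to 2913 CPM at 2 months, with none of the 3 at 0. Leukocyte markers summed to 921 to 1091 CPM at 30 months, against 922 to 1225 CPM at 24 months and 1092 to 1248 CPM at 2 months. The members of this list did not move alike between 2 and 30 months. The log2 fold change was -0.50 ± 0.07 for mir-150, 0.39 ± 0.12 for mir-142a and 1.39 ± 0.26 for mir-155. Each of these passed (SE, edgeR, adjusted p from 1.37e-05 to 0.0119), while mir-223 did not (0.14 ± 0.20, adjusted p = 0.629). Choroid plexus and ciliated cell markers summed to 9158 to 10201 CPM at 30 months, against 9560.6 to 10293 CPM at 24 months and 7717 to 9189 CPM at 2 months, and none of either list was at 0 in all libraries. Erythroid markers summed to 2523 to 4999.7 CPM at 30 months, 2415 to 5547.5 CPM at 24 months and 2068 to 3493 CPM at 2 months. Epithelial markers summed to 268 to 2013 CPM at 30 months, 83.8 to 780 CPM at 24 months and 129 to 2006 CPM at 2 months. The part of these cells in the result was not tested. In bulk tissue, a change in the number of cells of a type and a change in RNA per cell cannot be told apart.

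By Pearson's r of log2(CPM + 0.5) over the 25 libraries, the precursors most like mir-33 among 320 others with a mean of at least 10 CPM were mir-219a-1 (r = 0.88), mir-219b (0.84) and mir-1224 (0.78). These values describe libraries that share their scaling and are no test. In the interval between 24 and 30 months the 3 precursors with a smaller p than mir-33 were mir-219b, mir-219a-1 and mir-219a-2, with log2 fold changes of 1.25 ± 0.09, 1.21 ± 0.12 and 0.57 ± 0.07 (SE, n = 5 each, adjusted p from 6.68e-10 to 2.84e-06). They were named after their values were seen.

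**Figure D2:**
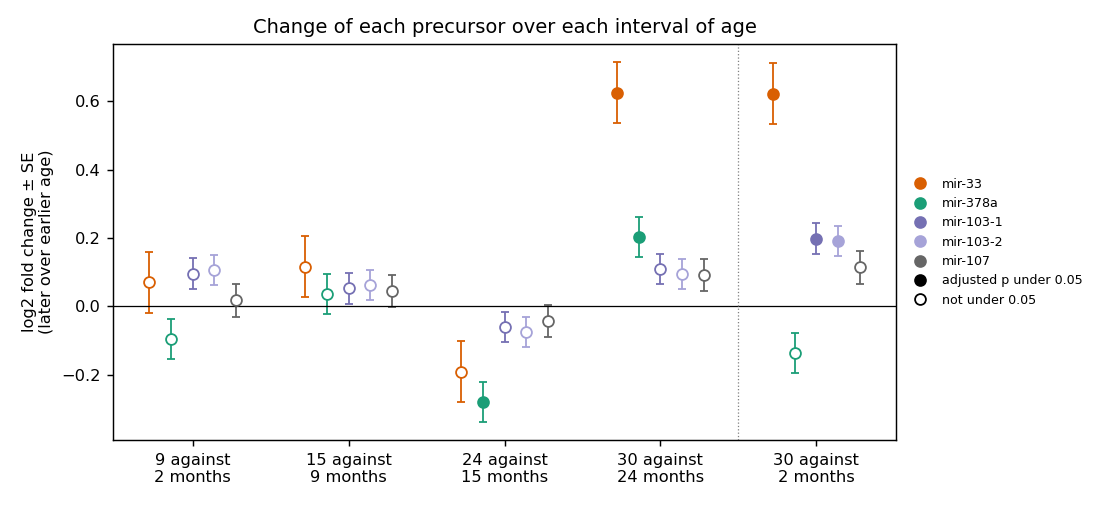
The log2 fold change of each precursor (later over earlier age, ± SE, n = 5 libraries per age) over the 4 intervals between neighbouring ages and from 2 to 30 months; filled points passed the edgeR test. The rise of mir-33 lies in the last interval (0.63 ± 0.09), and mir-378a lies below 0 between 15 and 24 months (-0.28 ± 0.06) and above it between 24 and 30 months (0.20 ± 0.06).

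mir-378a, on the minus strand at chr18:61397835-61397900 between exons 1 and 2 of Ppargc1b and 2389 bases from the nearest exon, had its lowest levels at 24 months. It lay at 1812.5, 1579, 1633, 1404 and 1544.5 CPM at 2 months and at 1395, 1542, 1487, 1479.5 and 1566.5 CPM at 9 months. It lay at 1454, 1534.5, 1668, 1484 and 1521 CPM at 15 months. The 24-month libraries had 1145, 1260, 1351, 1293 and 1258 CPM, and the 30-month libraries had 1378, 1361, 1518, 1551 and 1448 CPM. Each 24-month library lay below each library of the other ages, while the 30-month libraries overlapped those of 2, 9 and 15 months. Whether this separation is rare among the tested precursors is not known, as overlap was examined only for the members and the miR-378 relatives.

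Between 15 and 24 months mir-378a was the single precursor of 425 that was called, which makes the 0.235% background its own call. It averaged 1261.5 ± 75.1 CPM at 24 months and 1532.5 ± 82.3 CPM at 15 months (SD, n = 5 each), and fell by 0.28 ± 0.06 on the log2 scale (SE), or by 17.7% (edgeR, adjusted p = 0.0318). All 4 lanes with both ages gave a negative difference, of -0.37 in lane 3, -0.24 in lane 4, -0.21 in lane 7 and -0.18 in lane 8. DESeq2 gave -0.29 (adjusted p = 0.00115). The call was lost without lane 3 (-0.26, adjusted p = 0.0836) and under upper-quartile scaling (-0.23, adjusted p = 0.157), and just missed with no filter on low counts (adjusted p = 0.0523) or a mean of at least 10 CPM (adjusted p = 0.0515). It was also lost without 15-month replicate 3 (-0.26, adjusted p = 0.0641), 24-month replicate 1 (-0.26, adjusted p = 0.0621) or 24-month replicate 4 (-0.29, adjusted p = 0.0506).

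Between 24 and 30 months mir-378a rose again, to 1451 ± 83.6 CPM at 30 months against 1261.5 ± 75.1 CPM at 24 months (SD, n = 5 each). The log2 fold change was 0.20 ± 0.06 (SE, edgeR, adjusted p = 0.0298), and lay between 0.16 and 0.27 in the 4 lanes with both ages. The call was lost without lane 3 (0.18, adjusted p = 0.0525), under upper-quartile scaling (0.13, adjusted p = 0.294) and with library totals (0.16, adjusted p = 0.0599). It missed with no filter on low counts (0.18, adjusted p = 0.137) and with only the 2 ages in the fit (0.20, adjusted p = 0.0549). It was also lost in 7 of the 25 refits that left out 1 library, namely 9-month replicate 4 (0.18), 24-month replicates 1 (0.16), 2 (0.19) and 5 (0.19) and 30-month replicates 3 (0.17), 4 (0.16) and 5 (0.18), with adjusted p from 0.0506 to 0.130.

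Over all 5 ages mir-378a differed (edgeR, adjusted p = 9.34e-04, where 32.7% of precursors did), and its line on age fell by 0.09 ± 0.03 on the log2 scale per 12 months (SE, adjusted p = 0.0165). The age means departed from the line (adjusted p = 0.0294). That departure was lost under upper-quartile scaling (adjusted p = 0.286), with no filter (adjusted p = 0.0982) and without 24-month replicate 1 (adjusted p = 0.0753) or 5 (adjusted p = 0.0552) or 30-month replicate 4 (adjusted p = 0.0600).

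Between 30 and 2 months mir-378a had 1451 ± 83.6 CPM at 30 months and 1595 ± 148 CPM at 2 months (SD, n = 5 each). The log2 fold change of -0.14 ± 0.06 did not pass the test (SE, adjusted p = 0.0709). Without lane 3 it did not pass either (-0.12, adjusted p = 0.115), nor with no filter (-0.13, adjusted p = 0.144), a mean of at least 10 CPM (-0.15, adjusted p = 0.0526) or only the 2 ages in the fit (-0.17, adjusted p = 0.104). It passed under each other scaling tried, with -0.21 for the upper quartile, -0.16 for library totals and -0.16 for relative log expression (RLE) (adjusted p from 0.0176 to 0.0299). It also passed in 22 of the 25 refits without 1 library, and missed without 2-month replicate 1 (-0.13) or 5 (-0.15) or 24-month replicate 4 (-0.14). All 4 lanes with both ages gave a negative difference, from -0.32 to -0.02.

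**Figure D3:**
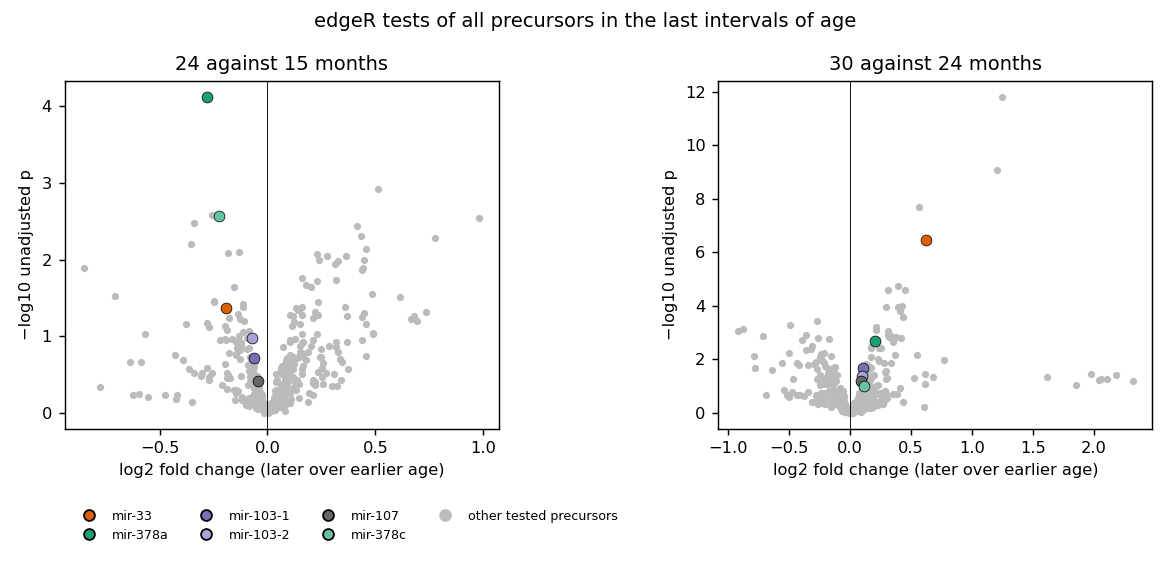
Log2 fold change (later over earlier age) against −log10 of the unadjusted edgeR p for the 425 tested precursors, between 24 and 15 months (left) and between 30 and 24 months (right), with the 5 members and mir-378c in colour. mir-378a has the smallest p between 15 and 24 months, and mir-33 the 4th smallest between 24 and 30 months.

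The relatives of mir-378a by name were mir-378b, mir-378c and mir-378d, of which mir-378c and mir-378d were tested. mir-378c was the precursor most like mir-378a over the 25 libraries (r = 0.78), followed by mir-181d (0.76) and mir-540 (0.69). It held between 3.80% and 4.74% of the reads of the pair in all libraries, and whether reads of mir-378a enter its count was not tested. Levels of mir-378c were 61.5 ± 3.04 CPM at 30 months and 72.9 ± 5.76 CPM at 2 months (SD, n = 5 each), and it fell by 0.24 ± 0.07 on the log2 scale (SE, adjusted p = 0.00624) with no overlap of the libraries. Between 15 and 24 months its log2 fold change was -0.23 ± 0.07, with 56.7 ± 2.82 CPM at 24 months and 66.3 ± 3.56 CPM at 15 months (SD, n = 5 each), and did not pass (SE, unadjusted p = 0.00273, edgeR adjusted p = 0.221). mir-378d lay between 0.148 and 1.296 CPM in lane 3 and between 5.08 and 39.4 CPM in the other lanes, and its log2 fold change between 30 and 2 months was -0.09 ± 0.97 (SE, n = 5 each, adjusted p = 0.949). mir-378b had at most 5 reads in a library.

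The mir-103 copies rose slightly with age and could not be read as separate loci. mir-103-1 held between 49.3% and 50.3% of the reads of the pair in the 25 libraries, and the copies correlated over libraries with r = 0.98. mir-107 held between 16.8% and 18.9% of the reads of all 3 loci.

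**Figure D4:**
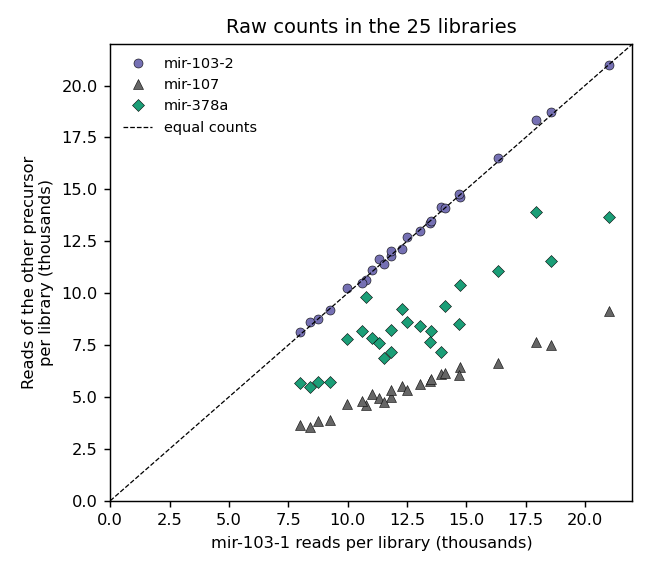
Raw reads per library (axes scaled as labelled) of mir-103-2, mir-107 and mir-378a against those of mir-103-1 in the 25 libraries. The points of mir-103-2 lie on the dashed line of equal counts, those of mir-107 lie in a narrow band below it, and those of mir-378a scatter more widely.

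mir-103-1 lay at 1992, 2025, 2116, 1967 and 2057 CPM at 2 months and at 2141, 2183, 2193, 2094 and 2245.5 CPM at 9 months. It lay at 2226, 2289.7, 2150.5, 2386 and 2211 CPM at 15 months and at 2236, 2076.5, 2332, 1941 and 2215.5 CPM at 24 months. At 30 months it lay at 2234, 2282, 2506, 2409.8 and 2222 CPM. The 30-month and 2-month libraries did not overlap, while the 24-month libraries overlapped those of each other age.

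Between 2 and 30 months mir-103-1 rose to 2331 ± 123 CPM at 30 months, against 2031 ± 58.2 CPM at 2 months (SD, n = 5 each), a log2 fold change of 0.20 ± 0.04 or 14.7% (SE, edgeR, adjusted p = 0.00124). mir-103-2 gave 0.19 ± 0.04 (adjusted p = 0.00140), with 2322 ± 123 CPM at 30 months and 2032 ± 53.1 CPM at 2 months. With the copies summed into 1 row the log2 fold change was 0.16 (adjusted p = 0.00969), and with mir-107 added it was 0.16 (adjusted p = 0.00795). Within the 4 lanes with both ages the difference of mir-103-1 lay between 0.08 and 0.28, above 0 in each. Without 1 library the log2 fold change lay between 0.136 and 0.197 for mir-103-1, against 0.198 in the main fit. For mir-103-2 it lay between 0.129 and 0.191, against 0.192, and both passed in each of these refits. The median log2 fold change of all 425 precursors was 0.05 in this comparison, against 0.01 with the copies summed and 0.02 with mir-107 added, so the summed values also carry a changed scaling. Under the RLE, upper-quartile and library-total scalings that median lay between -0.02 and 0.02, and mir-103-1 lay between 0.13 and 0.17 and passed each time (adjusted p from 0.00424 to 0.0255).

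None of the intervals between neighbouring ages passed for mir-103-1, with log2 fold changes of 0.10 ± 0.04, 0.05 ± 0.04, -0.06 ± 0.04 and 0.11 ± 0.04 in order of age (SE, n = 5 each, edgeR adjusted p from 0.130 to 0.998). Those of mir-103-2 did not pass either, although its 9-month libraries, at 2135 to 2242 CPM, lay above its 2-month libraries, at 1971 to 2087.5 CPM. The difference over all 5 ages passed for both copies (adjusted p = 0.0125 for mir-103-1 and 0.00965 for mir-103-2), and so did the slope, at 0.06 ± 0.02 per 12 months for each (adjusted p = 0.00992 and 0.0160). With the copies summed the difference over ages (adjusted p = 0.0531) and the slope (0.05, adjusted p = 0.0543) missed the threshold. When each library was left out in turn, the call over ages did not hold in 16 of 25 refits for mir-103-1 and in 11 for mir-103-2. The call of the slope did not hold in 13 and 19 of them.

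mir-107, whose seed is that of miR-103-3p, did not pass in any comparison. It lay at 855, 942, 957, 919 and 930.1 CPM at 2 months, at 900.3, 958, 893, 956 and 953 CPM at 9 months and at 981, 999, 919, 964 and 948 CPM at 15 months. It lay at 982.5, 938, 962, 844 and 946 CPM at 24 months and at 937, 947, 1086.5, 1042 and 970.1 CPM at 30 months, and the ages overlapped throughout. The mean was 996 ± 65.1 CPM at 30 months and 920.5 ± 39.5 CPM at 2 months (SD, n = 5 each), a log2 fold change of 0.11 ± 0.05 (SE, edgeR, adjusted p = 0.0617). Without 24-month replicate 4 it passed (0.11, adjusted p = 0.0441). A p that misses the threshold does not show that mir-107 stayed level, and its fold change is not shown to differ from that of mir-103 by these tests.

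**Figure D5:**
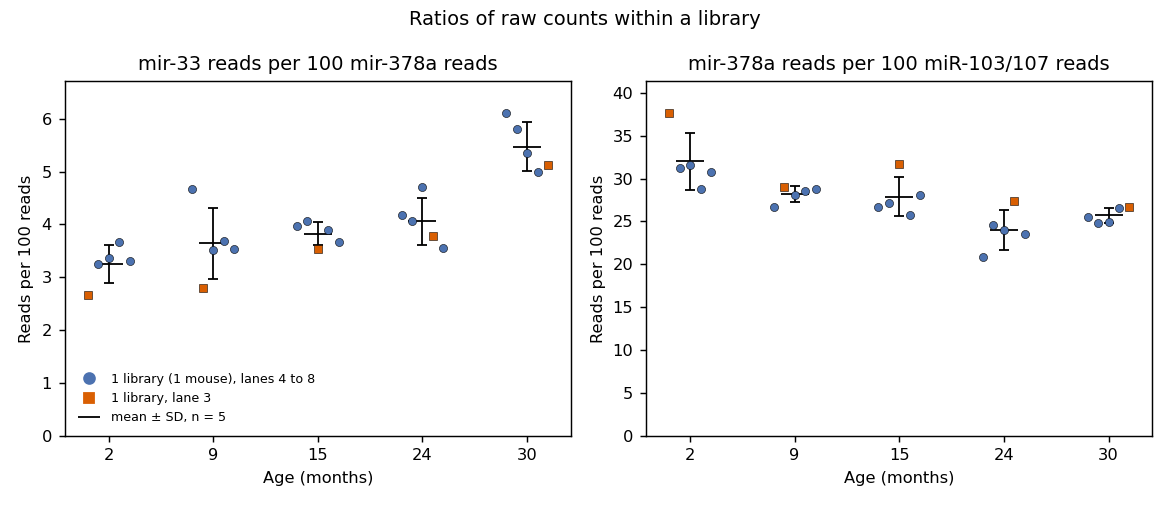
Ratios of raw counts within each library against age in months: mir-33 reads per 100 mir-378a reads (left) and mir-378a reads per 100 reads of mir-103-1, mir-103-2 and mir-107 together (right). Points are libraries, squares are lane 3, and bars give the mean ± SD of 5 libraries; the left ratio is 5.47 ± 0.469 at 30 months and 3.25 ± 0.364 at 2 months, and the right one 25.7 ± 0.907 and 32.0 ± 3.31.

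Ratios of counts within a library do not depend on how libraries are scaled, and they compare the members with each other. They were tested for mir-33, mir-378a, mir-107 and the summed mir-103 copies by exact permutation of libraries, two-sided, for 6 ratios in each of 3 comparisons. The p-values were adjusted over these 18 tests, and 5 against 5 libraries cannot give a p below 0.00794. Without lane 3, 4 against 4 libraries cannot give a p below 0.0286, and an adjusted p of 0.0468 is that floor after adjustment. Whether a ratio passes in a refit with fewer libraries therefore also depends on how many of the 18 reach the floor. A ratio shows unequal change and not which of the members changed.

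Between 2 and 30 months mir-33 gained on each of the others. The log2 ratio of mir-33 to mir-378a was -4.20 ± 0.12 at 30 months and -4.95 ± 0.17 at 2 months (SD, n = 5 each), a difference of 0.76 (exact permutation, adjusted p = 0.0179). Against mir-103 the difference was 0.43 and against mir-107 it was 0.51, each with the same adjusted p and with no overlap between the ages. Between 30 and 24 months the differences were 0.43 against mir-378a, 0.53 against mir-103 and 0.54 against mir-107 (exact permutation, adjusted p = 0.0179 each). The first was smaller than over the whole span, and the others were no smaller. Without lane 3 the differences between 30 and 2 months were 0.71 against mir-378a, 0.42 against mir-103 and 0.53 against mir-107. Between 30 and 24 months they were then 0.43, 0.56 and 0.58 in the same order (exact permutation, adjusted p = 0.0468 each). The lane 3 library had the lowest ratio of mir-33 to mir-378a at 3 of the 5 ages.

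mir-378a lost ground to the mir-103 and mir-107 loci over the same span. Its log2 ratio to mir-103 was -1.68 ± 0.05 at 30 months and -1.35 ± 0.14 at 2 months (SD, n = 5 each), a difference of -0.33, and its ratio to mir-107 differed by -0.25 (exact permutation, adjusted p = 0.0179 each, with no overlap). Between 15 and 24 months the differences were -0.21 against mir-103 (exact permutation, adjusted p = 0.0519) and -0.24 against mir-107 (adjusted p = 0.0317), and between 24 and 30 months they were 0.10 and 0.11 and did not pass (adjusted p = 0.235 and 0.198). The lane 3 library had the highest ratio of mir-378a to the mir-103 and mir-107 loci at each of the 5 ages. Without lane 3 the differences between 30 and 2 months were -0.29 against mir-103 and -0.18 against mir-107 (exact permutation, adjusted p = 0.0468 each). Between 30 and 24 months they were 0.13 and 0.15 and did not pass (adjusted p = 0.0791 each). Between 24 and 15 months they were -0.21 and -0.24 (adjusted p = 0.0468 each). With 1 library left out, the ratio to mir-107 in that interval missed without 15-month replicate 3 (-0.19, adjusted p = 0.0571) or 24-month replicate 1 (-0.18, adjusted p = 0.0714), and the ratio to mir-103 passed without 24-month replicate 4 (-0.26, adjusted p = 0.0238). Without that library the differences between 30 and 24 months also passed, at 0.15 against mir-103 and 0.16 against mir-107 (adjusted p = 0.0238 each). The ratio of mir-103 to mir-107 differed by 0.08 between 30 and 2 months (exact permutation, adjusted p = 0.0519), with overlapping libraries, by 0.11 without lane 3 (adjusted p = 0.0468) and by 0.10 without 2-month replicate 1 (adjusted p = 0.0159).

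The other precursors most like the mir-103 and mir-107 loci over the 25 libraries were let-7i (r = 0.74), mir-344b (0.72) and let-7f-1 (0.72) for mir-103-1. They were mir-344b (0.76), mir-344d-3 (0.71) and mir-93 (0.71) for mir-103-2, and mir-30d (0.76), mir-218-1 (0.75) and mir-218-2 (0.75) for mir-107. Among the members, mir-378a had r of 0.05 with mir-33 and between -0.08 and -0.02 with the mir-103 and mir-107 loci, while mir-33 had r of 0.48 to 0.61 with those 3 loci.

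miR-103 and miR-107 are often grouped with miR-15, miR-16, miR-195, miR-322 and miR-497 because all carry AGCAGCA near the 5′ end, shown in capitals. It begins at base 1 in miR-103 and miR-107 and at base 2 in the others, which shifts the seed by 1 base.
miR-103-3p: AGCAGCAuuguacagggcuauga
miR-107-3p: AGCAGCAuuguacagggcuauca
miR-15a-5p: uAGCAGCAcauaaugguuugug
miR-16-5p: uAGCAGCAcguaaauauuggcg
miR-322-5p: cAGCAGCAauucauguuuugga
miR-497a-5p: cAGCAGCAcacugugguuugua
Searched as these letters in the RNA strand, AGCAGCA occurred in 16 of the 1679 mature miRNAs (0.953%), and 12 of them held it from base 1 or 2.

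Outside the members, 8 of 10 precursors listed for this group were tested between 30 and 2 months, with 3 higher and 2 lower (62.5% called, against 36.9% of all 425) and a median log2 fold change of 0.07, against 0.05 over all 425. mir-15a had 571 ± 49.5 CPM at 30 months and 473 ± 35.3 CPM at 2 months (SD, n = 5 each), and rose by 0.27 ± 0.06 on the log2 scale (SE, edgeR, adjusted p = 0.00221). The mir-16 copies rose by 0.20 ± 0.08 each (adjusted p = 0.0437 and 0.0443). mir-322 fell to 63.8 ± 8.41 CPM at 30 months, against 104 ± 10.5 CPM at 2 months, a log2 fold change of -0.70 ± 0.10 (adjusted p = 1.34e-05), and mir-497b fell by 0.34 ± 0.11 (adjusted p = 0.0223). mir-497a, whose mature sequence is printed above, did not pass (-0.29 ± 0.13, adjusted p = 0.0721). The list was drawn up by name, and whether mir-497b carries AGCAGCA is not shown here. mir-497a and mir-497b had like mean levels, at 122 and 119 CPM, and whether they share reads was not tested. That 1 of them passed does not show that they changed unequally. The share called counts the mir-16 copies as separate rows, and mir-497a and mir-497b likewise.

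Of 23 listed miRNAs of cholesterol and lipid transport outside the members, 22 were tested between 30 and 2 months, and 1 rose and 5 fell. This is 27.3% called, against 36.9% of all 425 (19.1% higher and 17.9% lower). mir-27b rose by 0.27 ± 0.10 on the log2 scale (SE, n = 5 each, edgeR, adjusted p = 0.0420). mir-148a, which in mice represses the LDL receptor, fell to 2947 ± 386 CPM at 30 months, against 4109 ± 370.0 CPM at 2 months (SD), a log2 fold change of -0.48 ± 0.10 (adjusted p = 7.08e-04). mir-20a fell by 0.46 ± 0.12 and mir-128-1 by 0.37 ± 0.09 (adjusted p = 0.00513 and 0.00301). The median over the 22 was 0.08, against 0.05 over all 425.

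Of 23 listed miRNAs of insulin, glucose and mitochondrial function, 19 were tested, and 8 rose and 0 fell between 30 and 2 months (42.1% called, against 36.9% of all 425). Of all 425, 19.1% were called higher and 17.9% lower at 30 months, a split that changed with the scaling. The 8 that rose include mir-29a, mir-29b-1, mir-29b-2 and mir-29c, which belong to a single family and count as separate rows of the list. They are therefore not 8 independent results. The median log2 fold change was 0.17, against 0.05 over all 425. mir-210, which represses iron-sulfur cluster assembly, had 110.2 ± 12.5 CPM at 30 months and 72.1 ± 4.02 CPM at 2 months (SD, n = 5 each), a log2 fold change of 0.61 ± 0.09 (SE, edgeR, adjusted p = 1.37e-05). mir-338, which is also among the oligodendrocyte markers, rose by 0.54 ± 0.08 and let-7i by 0.44 ± 0.09 (adjusted p = 1.11e-05 and 3.73e-04).

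Location in a host intron was shared with 514 other precursors on the strand of an annotated gene, of which 151 were tested. Between 30 and 2 months 21 of them rose and 27 fell (31.8% called, median log2 fold change 0.03), a share near the background of 36.9%. Among those that passed and averaged 10 CPM or more, mir-449a (0.72 ± 0.17), mir-3084-1 (0.69 ± 0.21) and mir-339 (0.54 ± 0.12) had the largest rises, and mir-6944 (-0.70 ± 0.12), mir-3086 (-0.56 ± 0.11) and mir-6540 (-0.46 ± 0.08) the largest falls on the log2 scale (SE, n = 5 each, edgeR adjusted p from 4.21e-05 to 0.0132). Between 30 and 24 months 10 rose and 2 fell of the 151 (7.95% called).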

How the data were processed

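The authors deposited raw read counts per miRNA precursor, 1 column for each of the 25 libraries. Per the labels' protocols, small RNA libraries were made from total RNA of brain hemispheres. SAMtools 1.3.1-9, Trimmomatic 0.36 and bcl2fastq 1.8.4 are tools that the submitters' processing notes list. Not given in the sources used here are the aligner, its genome, how reads were counted and how those that map to several loci were treated, which bears on mir-103-1, mir-103-2, mir-107 and mir-378c, whose mature sequences are shared or nearly so.

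Counts were tested with edgeR 4.0.16 (R 4.3.3): filterByExpr left 425 of 1193 precursors, libraries were scaled by TMM, and quasi-likelihood tests from 1 fit of all 5 ages were adjusted by Benjamini-Hochberg over the 425, with a threshold of 0.05. DESeq2 1.42.0, other scalings and filters, lane as a covariate and leaving out each library or lane 3 were alternatives. The script was tested on simulated data. Ratios were log2 of raw counts. Correlations used a pseudocount of 0.5. Named precursors were the members, the 3 most like each, up to 3 rises and 3 falls per list with a mean of at least 10 CPM, and the miR-378 relatives. The members, lists and tests were chosen with earlier results of these data known. The labels give 5 samples per age but no replicate numbers, so replicates were numbered in accession order and pair nothing. Each title carries its own number, read here as 1 mouse per library, but no label says so, and p-values measure the spread between these samples. Counting intervals would cover counting error only.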

Additional observations from a re-analysis of the deposited data

How the results depend on the processing

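The log2 fold changes of mir-33 between 30 and 2 months (0.56 to 0.63) and between 30 and 24 months (0.56 to 0.69) passed under every alternative tried, the 25 refits without 1 library included. For mir-378a the difference over ages and the slope also passed under every alternative tried (adjusted p up to 0.00919 and 0.0277), while the calls that follow depended on the setting. Between 30 and 2 months it passed with RLE scaling (-0.16), upper-quartile scaling (-0.21), library totals (-0.16), DESeq2 (-0.16) and lane as a covariate (-0.14), did not pass with no filter, a mean of at least 10 CPM, without lane 3 or with only the 2 ages (-0.17 to -0.12), and lay between -0.19 and -0.13 without 1 library; the reference library that TMM picks changes with the set of libraries. Between 24 and 15 months it did not pass with upper-quartile scaling (-0.23), no filter (-0.28), a mean of at least 10 CPM (-0.28) or without lane 3 (-0.26), and lay between -0.31 and -0.26 without 1 library. Between 30 and 24 months it did not pass with upper-quartile scaling (0.13), library totals (0.16), no filter (0.18), without lane 3 (0.18) or with only the 2 ages (0.20), and lay between 0.16 and 0.21 without 1 library. Its departure from the line missed with upper-quartile scaling (adjusted p = 0.286) and no filter (adjusted p = 0.0982), and had adjusted p from 0.00958 to 0.0753 without 1 library.

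For mir-103-1 the difference over ages missed with upper-quartile scaling (adjusted p = 0.181), no filter (0.0664) and copies summed (0.0531), and ranged from 0.00484 to 0.122 without 1 library. Its slope missed with copies summed (0.0492) and with mir-107 added (0.0474), and lay between 0.0411 and 0.0707 without 1 library. For mir-103-2 the difference over ages missed with upper-quartile scaling (adjusted p = 0.118) and copies summed (0.0531), and ranged from 0.00284 to 0.107 without 1 library. Its slope missed with RLE scaling (0.0485), no filter (0.0622), DESeq2 (0.0484), copies summed (0.0492) and mir-107 added (0.0474), and lay between 0.0383 and 0.0679 without 1 library. The row of mir-103 and mir-107 summed, mostly mir-103 reads, passed between 30 and 2 months (0.16) and over ages (adjusted p = 0.0495), which is no call of mir-107. Without 1 library the log2 fold change of mir-107 between 30 and 2 months lay between 0.0455 and 0.11 and its slope between 0.0134 and 0.0444. Values near 0 changed sign: mir-107 between 9 and 2 months was -0.011 with upper-quartile scaling, -0.013 without lane 3 and -0.0224 to 0.0392 without 1 library, and between 24 and 15 months 0.0053 with upper-quartile scaling. Without 1 library mir-33 between 9 and 2 months lay between -0.0053 and 0.16, and the log2 ratio of mir-103 to mir-107 between 30 and 24 months between -0.0015 and 0.0291. The cause of these changes was not tested.

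The number of precursors called between 9 and 2 months was 33, against 15 with no filter, 50 with lane as a covariate, 9 with only the 2 ages and 19 to 39 without 1 library. Between 15 and 9 months it was 0, against 1 with library totals, 2 with DESeq2 and 0 to 1 without 1 library. Between 24 and 15 months it was 1, against 0 with upper-quartile scaling, no filter, a mean of at least 10 CPM or without lane 3, 2 with DESeq2 or lane as a covariate, and 0 to 1 without 1 library. Between 30 and 24 months it was 37, against 20 with no filter, 19 with only the 2 ages and 16 to 53 without 1 library. For the departure from the line it was 30, against 19 with upper-quartile scaling or no filter, 53 with lane as a covariate and 19 to 39 without 1 library. The replicate numbers follow accession order and pair no libraries, and lane, which links libraries across ages, was fitted as a covariate in an alternative only. Of the 5 members mir-33 had the fewest reads, 208 to 700 a library.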
